A study of Mus musculus with 20 samples.

Results

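Imprinted genes are expressed mainly from one parental copy, and 49 of them, chosen by symbol from the known mouse imprinted domains, were followed among the 34937 genes of the count tables of single 8C (8-cell) embryos. All 49 symbols were found, each with a single Ensembl gene. By the allele from which they are known to be expressed, 28 are paternally expressed, 19 are maternally expressed, and 2, Gnas and Grb10, use different alleles at different promoters. The counts do not tell the parental alleles apart, so every value is the sum over both.

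Imprints are set in the germ line. At most domains a stretch of DNA is methylated in the oocyte and not in the sperm, at a few it is methylated in the sperm, and at a further small group the oocyte copy is silenced in the preimplantation embryo by trimethylation of histone H3 lysine 27 (H3K27me3), the mark of Polycomb repressive complex 2 (PRC2). After fertilisation the DNA methylation of the imprints has to survive the general loss of methylation, which needs the zinc-finger protein ZFP57, its partner TRIM28, the maintenance methyltransferase DNMT1 and the oocyte protein DPPA3. G9a, encoded by Ehmt2, places dimethylation on histone H3 lysine 9 (H3K9me2), and Ehmt2Mat embryos develop from oocytes without it. The marks named for each domain are background knowledge and were not measured here.

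Embryos were collected at E2.5 from natural matings on a mixed background, and each library is one whole, morphologically normal embryo. Ehmt2Cntr embryos (n = 9) came from Ehmt2F/+ mothers and Ehmt2Mat embryos (n = 10) from Ehmt2F/- mothers. All mothers carried Zp3-Cre, which recombines the conditional allele in growing oocytes, and the fathers were Ehmt2+/-. Of the Ehmt2Mat embryos, 5 had the zygotic genotype -/- (Ehmt2M/Z) and 5 had +/- (Ehmt2M/+), and of the Ehmt2Cntr embryos 3 were +/- and 6 were +/+. The comparison of Ehmt2Mat with Ehmt2Cntr thus mixes the maternal with the zygotic genotype. How many mothers the embryos came from is not given in the sources used here, so litter and group cannot be told apart. In a whole embryo, fewer cells and less RNA per cell cannot be told apart either.

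The embryos gave between 8231646 and 30602434 counts on genes. A floor of 3 counts corresponded to between 0.0998 and 0.231 CPM, the count relative to a scaled library size, in Ehmt2Cntr and between 0.098 and 0.364 CPM in Ehmt2Mat. On the first principal component of all genes tested, which held 17.2% of the variance, 8 Ehmt2Cntr embryos lay between -70.6 and -30.9 and the Ehmt2Mat embryos between 6.02 and 89.5. Ehmt2Cntr embryo 10 stood apart from its group at 5.38, and results that rest on it are given with and without it. Ehmt2 itself had 141 ± 59.7 CPM (SD, n = 9) in Ehmt2Cntr and 102 ± 32.7 CPM (SD, n = 10) in Ehmt2Mat (adjusted p = 0.233, edgeR). Reads on exons outside the recombined part still count for the gene, so this total does not check the genotype.

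All 12 markers of the 8C stage had reads in both groups. Klf5 and Sall4 were lower in Ehmt2Mat (log2 fold changes of -1.49 and -1.07), and Tfap2c and Tead4 were higher (0.75 and 0.90). The 10 oocyte markers summed to between 47.5 and 315 CPM in Ehmt2Cntr and to between 124 and 389 CPM in Ehmt2Mat, and 1 of them, Oosp1, was higher in Ehmt2Mat (2.70). The 10 cumulus cell markers summed to between 23.3 and 110 CPM in Ehmt2Cntr and to between 43.9 and 167 CPM in Ehmt2Mat, with Amhr2 the main contributor in both groups. Of these 10, Has2, Ptx3, Fshr and Foxl2 were at 0 in both groups. Cyp11a1, of steroid synthesis, reached 3 counts in 0 of 9 Ehmt2Cntr and 5 of 10 Ehmt2Mat embryos (0.010 against 4.86 CPM on average), Inhba in 0 and 3, Star in 5 and 7 (0.846 against 2.47 CPM), Tnfaip6 in 0 and 2, and Vcan in 0 and 1. The part of these marker differences in the results on imprinted genes was not tested.

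Start regions of the 2 imprinted genes that differed between the groups, and the shared start region of Peg3 and Usp29, are shown. Many imprints are carried by DNA methylation of CG-rich stretches, but that of Gab1 is known to rest on oocyte H3K27me3. Whether the stretches shown are methylated imprints was not tested. The windows are RefSeq promoters on GRCm38.p6, 250 bases before to 50 bases after an annotated start, read 5′ to 3′ on the strand of the gene, with CG dinucleotides, the targets of DNA methylation, in capitals. Gnas has 4 such windows, of which 3 are at separate places, at chr2:174284070-174284369, chr2:174327499-174327798 and chr2:174329756-174330055 on the plus strand. Gab1 has 2 overlapping windows, of which the upstream one, at chr8:80880470-80880769, is shown, and the Peg3 window is at chr7:6730370-6730669, both on the minus strand.
Gnas upstream start: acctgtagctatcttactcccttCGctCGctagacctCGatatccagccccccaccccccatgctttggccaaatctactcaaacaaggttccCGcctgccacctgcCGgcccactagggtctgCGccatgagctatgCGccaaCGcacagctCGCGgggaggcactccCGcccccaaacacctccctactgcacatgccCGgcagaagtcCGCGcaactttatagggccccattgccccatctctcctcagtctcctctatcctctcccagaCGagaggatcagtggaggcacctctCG
Gnas middle start: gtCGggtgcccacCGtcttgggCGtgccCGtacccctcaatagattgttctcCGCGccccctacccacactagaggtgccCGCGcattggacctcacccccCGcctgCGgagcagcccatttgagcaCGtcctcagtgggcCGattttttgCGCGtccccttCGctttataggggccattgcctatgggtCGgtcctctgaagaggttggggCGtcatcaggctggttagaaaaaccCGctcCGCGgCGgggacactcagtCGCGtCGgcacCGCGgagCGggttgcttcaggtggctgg
Gnas downstream start: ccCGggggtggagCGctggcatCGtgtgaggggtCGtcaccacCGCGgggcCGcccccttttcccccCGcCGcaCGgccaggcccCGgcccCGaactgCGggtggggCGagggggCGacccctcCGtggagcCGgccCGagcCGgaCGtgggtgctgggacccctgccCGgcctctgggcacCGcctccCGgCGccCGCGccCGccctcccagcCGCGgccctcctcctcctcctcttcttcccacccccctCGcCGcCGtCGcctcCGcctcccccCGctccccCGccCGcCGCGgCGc
Gab1 start: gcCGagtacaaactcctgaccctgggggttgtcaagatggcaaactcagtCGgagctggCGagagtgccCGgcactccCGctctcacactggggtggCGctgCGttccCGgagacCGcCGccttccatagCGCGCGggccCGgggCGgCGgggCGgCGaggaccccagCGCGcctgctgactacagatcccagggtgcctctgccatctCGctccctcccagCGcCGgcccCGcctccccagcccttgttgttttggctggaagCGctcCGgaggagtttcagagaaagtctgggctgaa
Peg3 start, facing Usp29: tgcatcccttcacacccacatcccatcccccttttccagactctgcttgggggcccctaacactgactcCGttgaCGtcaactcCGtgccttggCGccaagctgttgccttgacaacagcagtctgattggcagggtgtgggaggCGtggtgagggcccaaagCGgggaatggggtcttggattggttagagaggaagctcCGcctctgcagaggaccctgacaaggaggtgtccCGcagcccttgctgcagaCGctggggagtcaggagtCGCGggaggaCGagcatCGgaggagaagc

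The Gnas windows held 16, 27 and 40 CG dinucleotides from upstream to downstream, the Gab1 window shown held 26 (the other 28) and Peg3 held 13, against a median of 7 over all 32851 windows. The Peg3 window also holds the first base of Usp29 (position 6730583), which is transcribed the other way, and the annotated ends of both genes are 161 bases apart. The 40 members with a window used here had a median of 15 CG dinucleotides over their 56 windows.

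Imprinted genes differed widely in level at the 8C stage. Reads were detected, at 3 or more counts, for 14 of the 49 genes in every embryo, for 29 in part of the embryos and for 6 in none. An Ehmt2Cntr embryo had between 21 and 33 of the 49 genes detected, with a median of 23, and an Ehmt2Mat embryo between 21 and 36, with a median of 27. With each embryo thinned to the lowest total the ranges were 21 to 31 and 20 to 33. The upper end in Ehmt2Cntr was embryo 10 alone: the other 8 embryos had 21 to 25 genes, thinned or not, and 6 of 10 Ehmt2Mat embryos had more than 25 (5 of 10 thinned). Before thinning, the other 4 Ehmt2Mat embryos had 21 to 25. Setting Ehmt2Cntr embryo 10 aside was chosen after seeing the data. Detection over all genes was not counted in this way, so a difference particular to imprinted genes was not tested.

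**Figure D1:**
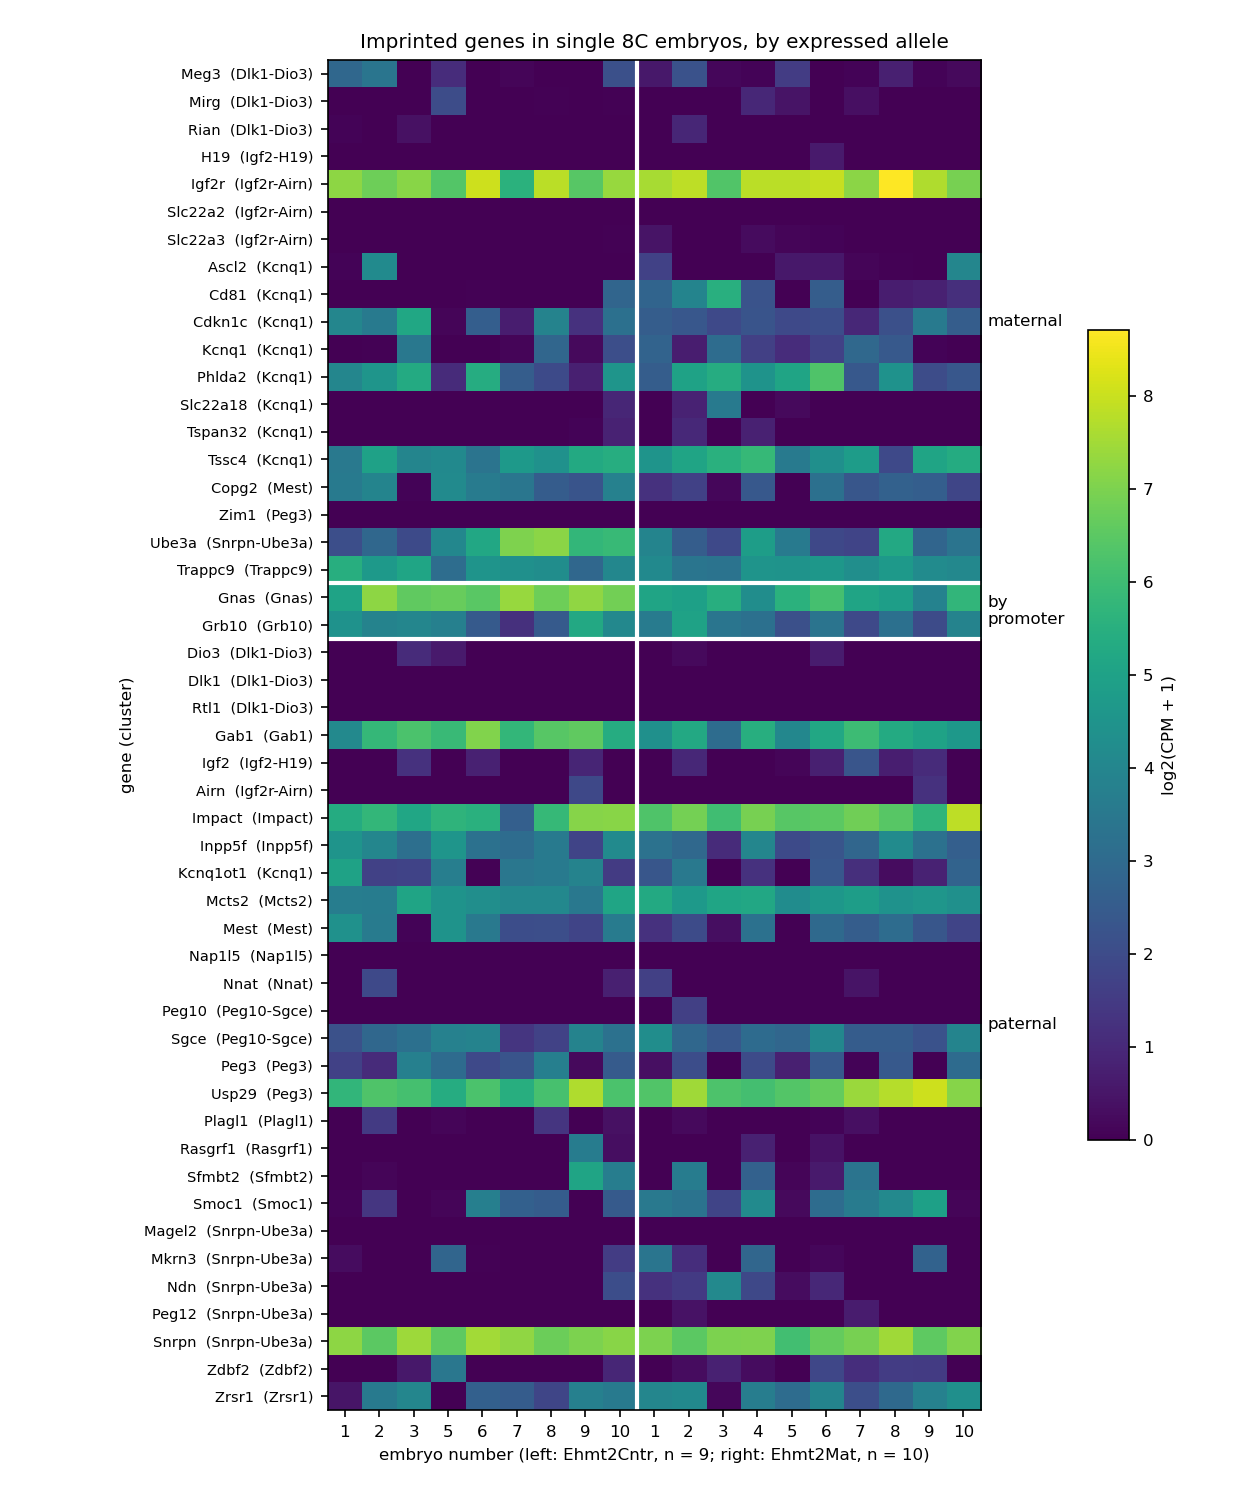
Level of each of the 49 imprinted genes, as log2(CPM + 1), in each embryo (columns, 9 Ehmt2Cntr to the left of the white line and 10 Ehmt2Mat to the right), with genes grouped by expressed allele and labelled with their cluster. Snrpn, Igf2r and Usp29 form bright rows across all embryos, Gnas is brighter on the left than on the right, and Ndn and Cd81 are near 0 in all Ehmt2Cntr embryos but number 10.

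Per kilobase of exon, Snrpn, which encodes a spliceosomal protein, had the highest mean level, at 58.1 ± 14.7 RPKM (CPM per kilobase of exon, SD, n = 19). Phlda2 (27.2 ± 26.4 RPKM), Mcts2 (25.1 ± 9.45 RPKM) and Impact (24.7 ± 15.1 RPKM) followed, with differences far smaller than their spread. Igf2r (18.7 ± 9.13 RPKM), Tssc4 (14.8 ± 8.03 RPKM), Usp29 (13.4 ± 8.01 RPKM) and Gab1 (10.1 ± 6.43 RPKM) came next, and neighbours in this order again differed by less than their SD. The amplification favours 3′ ends, so levels per full exon length are understated for long transcripts such as Igf2r and Usp29. Reads that map to several places were kept, so the level of the retrogene Mcts2 can include reads from similar sequences elsewhere.

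Between Ehmt2Mat and Ehmt2Cntr embryos, Gnas and Gab1 were lower in Ehmt2Mat, and no imprinted gene was called higher. After the filter on low counts 22 of the 49 genes were tested and 2 were called (9.09%), at an adjusted p under 0.05 in edgeR's quasi-likelihood test, beside 9.35% of all 11754 genes tested (4.98% lower, 4.37% higher). At an unadjusted p under 0.05 there were 4 of 22 (18.2%), beside 23.3% of all genes. The share of imprinted genes called was thus near that of all genes. Without Ehmt2Cntr embryo 10 the same 2 genes were called.

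By expressed allele, the 8 tested maternally expressed genes had a median log2 fold change of 0.05, and none was called. Over the alternative fits the median of maternally expressed genes ranged from -0.63 to 0.55, but those fits did not all hold the same genes. The 12 tested paternally expressed genes had a median of -0.06 with 6 values on each side of 0, and 1 was called, Gab1. The 2 genes that differ by promoter both had negative values, and 1 was called, Gnas. All 22 together had a median of -0.23, beside -0.04 over all genes tested. These medians describe genes that passed the filter, which is not the whole set. The allele labels are background knowledge and can hold for certain tissues, as for Ube3a in neurons. The allele in use at the 8C stage was not measured.

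**Figure D2:**
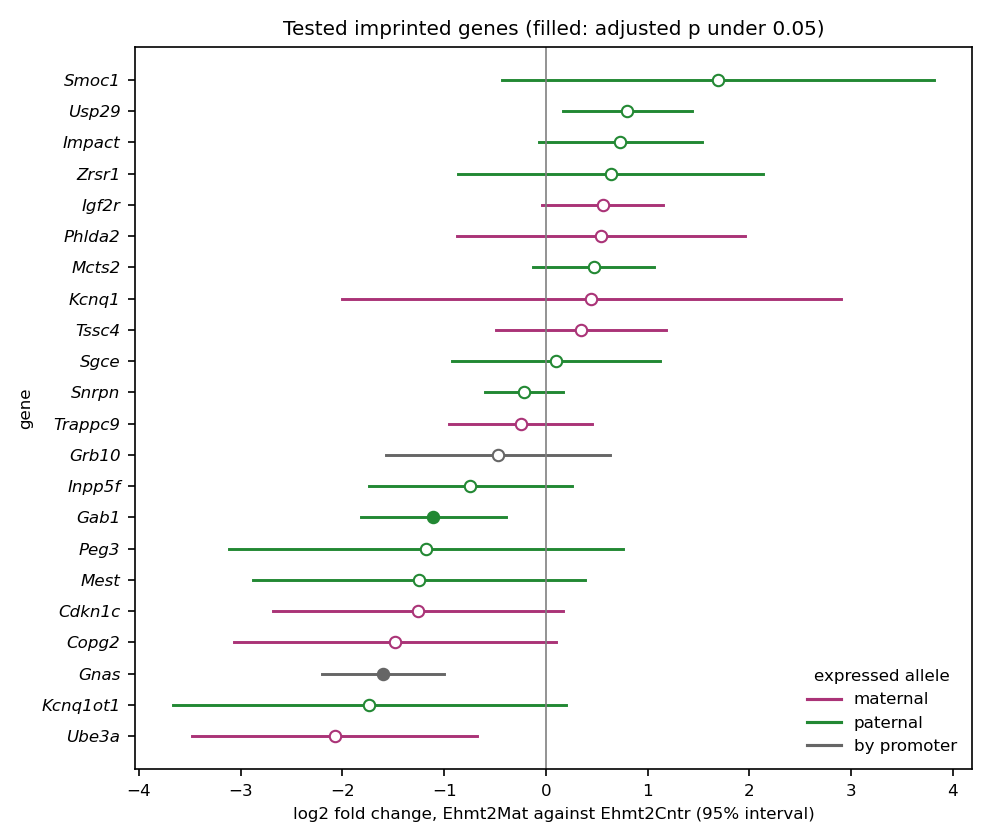
Log2 fold change of the 22 tested imprinted genes in Ehmt2Mat (n = 10) against Ehmt2Cntr (n = 9), with 95% intervals from edgeR, coloured by expressed allele and filled where the adjusted p is under 0.05. Gnas and Gab1 are filled, Ube3a has the lowest value with a wide interval, and maternally and paternally expressed genes lie on both sides of 0.

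Gnas (ENSMUSG00000027523, chr2:174284320-174346744, plus strand) encodes the alpha subunit of the stimulatory G protein, with further products from upstream promoters that are read from the maternal or the paternal allele. In Ehmt2Cntr embryos it had a lowest value of 32.3, a median of 109 and a highest value of 165 CPM. In Ehmt2Mat embryos the lowest was 13.7, the median 33.2 and the highest 69.4 CPM. All 10 Ehmt2Mat embryos lay below the Ehmt2Cntr median, and 8 of 9 Ehmt2Cntr embryos lay above every Ehmt2Mat embryo, the exception being Ehmt2Cntr embryo 1. The means were 112 ± 40.5 CPM (SD, n = 9) and 36.9 ± 16.5 CPM (SD, n = 10), with a log2 fold change of -1.60 (SE 0.29, 95% interval -2.20 to -0.999, edgeR adjusted p = 0.00152).

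The Gnas difference was called in all 19 fits with one embryo removed, with log2 fold changes from -1.75 to -1.50, and was -1.60 without Ehmt2Cntr embryo 10. The transcripts from its start regions share their 3′ exons, so the counts do not tell which promoter was lower. Counting used no strand, and 22.0% of the Gnas exon bases lie opposite exons of Nespas and Gm20721. Nespas had 0.616 ± 1.77 CPM (SD, n = 9) in Ehmt2Cntr and 0.030 ± 0.053 CPM (SD, n = 10) in Ehmt2Mat. The level of Gm20721 was not examined, so the part of opposite-strand reads in the Gnas counts is not known. Among embryos with the zygotic genotype +/- alone, 5 Ehmt2Mat against 3 Ehmt2Cntr, Gnas had a log2 fold change of -0.87 (edgeR adjusted p = 0.811), in a comparison in which 1 of 13401 genes was called. Those 3 controls include embryo 1.

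Gab1 (ENSMUSG00000031714, chr8:80764434-80880479, minus strand) encodes an adaptor protein downstream of receptor tyrosine kinases and is 1 of the 3 genes here whose paternal expression is known to rest on oocyte H3K27me3. In Ehmt2Cntr embryos its lowest, median and highest values were 16.3, 59.7 and 132 CPM, and in Ehmt2Mat embryos 7.51, 34.0 and 62.4 CPM. The groups overlapped, with 9 of 10 Ehmt2Mat embryos below the Ehmt2Cntr median and 4 of 9 Ehmt2Cntr embryos above every Ehmt2Mat embryo. The means of 68.2 ± 33.6 CPM (SD, n = 9) and 31.6 ± 15.7 CPM (SD, n = 10) gave a log2 fold change of -1.11 (SE 0.35, 95% interval -1.82 to -0.39, edgeR adjusted p = 0.0436). The call rested close to the threshold: it was kept in 4 of 19 fits without an embryo, those without Ehmt2Cntr embryo 1 or 10 or Ehmt2Mat embryo 4 or 7. The edgeR adjusted p ranged from 0.0162 to 0.0983 over the 19. In zygotic +/- embryos alone, 5 Ehmt2Mat against 3 Ehmt2Cntr, the Gab1 log2 fold change was -0.63 (edgeR adjusted p = 0.962). Ehmt2Cntr embryos had 44.0 ± 29.0 CPM in +/- (SD, n = 3) and 80.3 ± 30.7 CPM in +/+ (SD, n = 6).

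The other 2 genes of the H3K27me3 group did not show a called difference. Smoc1, which encodes a secreted matrix protein, ranged from 0 to 12.5 CPM in Ehmt2Cntr and from 0.082 to 29.8 CPM in Ehmt2Mat, with 8 of 10 Ehmt2Mat embryos above the Ehmt2Cntr median (log2 fold change 1.69, SE 1.03, edgeR adjusted p = 0.343). Sfmbt2, which encodes a Polycomb protein, was not tested, since it reached 3 counts in 2 of 9 Ehmt2Cntr and 4 of 10 Ehmt2Mat embryos, at up to 33.1 and 11.6 CPM. Gab1 and Smoc1 thus had fitted values of opposite sign, and the mark itself was not measured.

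**Figure D3:**
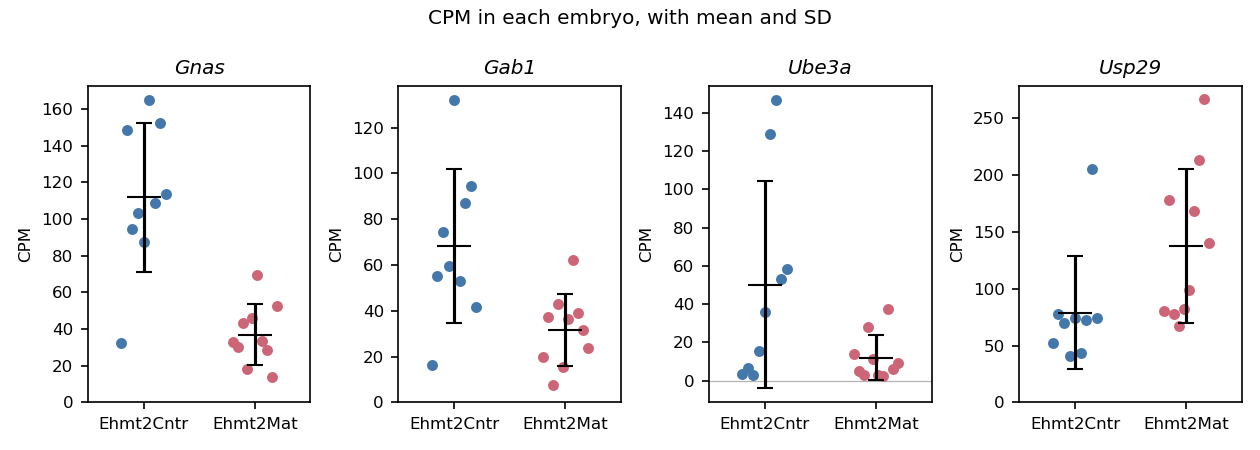
CPM of Gnas, Gab1, Ube3a and Usp29 in each embryo (points, 9 Ehmt2Cntr and 10 Ehmt2Mat), with the mean (horizontal mark) and SD (error bar), each panel on its own linear axis. The Gnas groups overlap through 1 low Ehmt2Cntr embryo at 32.3 CPM, and Ube3a spans 2.89 to 147 CPM within Ehmt2Cntr.

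In the Snrpn-Ube3a domain, Ube3a, which encodes a ubiquitin ligase that is maternally expressed in neurons, varied widely between embryos. Its lowest, median and highest values were 2.89, 36.0 and 147 CPM in Ehmt2Cntr and 2.43, 7.62 and 37.2 CPM in Ehmt2Mat. In 4 of 9 Ehmt2Cntr embryos it was above every Ehmt2Mat embryo, while Ehmt2Cntr embryos 1, 2 and 3 had 3.30, 6.51 and 2.89 CPM, within the Ehmt2Mat range. The log2 fold change of -2.08 (SE 0.68, 95% interval -3.47 to -0.68) missed the threshold in edgeR (adjusted p = 0.0535) and passed it in DESeq2 (adjusted p = 0.0162). It also passed in 5 of 19 fits without an embryo (Ehmt2Cntr embryo 1, 2 or 3 or Ehmt2Mat embryo 4 or 8), and with the filter of 10 counts in every embryo (edgeR adjusted p = 0.0254). In zygotic +/- embryos alone, 5 Ehmt2Mat against 3 Ehmt2Cntr, the value was -0.95 (edgeR adjusted p = 0.973). Ehmt2Cntr embryos had 21.4 ± 31.8 CPM in +/- (SD, n = 3) and 64.4 ± 59.4 CPM in +/+ (SD, n = 6). Exons of Snhg14 lie opposite 8.8% of the Ube3a exon bases, where unstranded reads counted for both.

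Snrpn, from the same domain, varied little. It had 135 ± 32.3 CPM (SD, n = 9) in Ehmt2Cntr and 117 ± 30.1 CPM (SD, n = 10) in Ehmt2Mat, with ranges of 90.5 to 179 and 66.5 to 175 CPM that overlapped almost throughout (log2 fold change -0.21, 95% interval -0.60 to 0.17). Of its exon bases 27.3% are shared with Snurf and Gm38393 on the same strand, so reads there counted for each gene. The paternally expressed Mkrn3, Ndn and Peg12 of the domain were detected in part of the embryos, and Magel2 in none.

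In the Peg3 domain, Usp29, which encodes a ubiquitin-specific peptidase, had the lowest unadjusted p (0.0158) of the 10 tested members with a positive fold change. Its lowest, median and highest values were 40.7, 72.1 and 206 CPM in Ehmt2Cntr and 67.6, 120 and 267 CPM in Ehmt2Mat. In 9 of 10 Ehmt2Mat embryos it was above the Ehmt2Cntr median, and the highest Ehmt2Cntr value, in embryo 9, lay far from the others, the next being 77.9 CPM. The log2 fold change was 0.80 (SE 0.31, 95% interval 0.16 to 1.43, edgeR adjusted p = 0.104), and without Ehmt2Cntr embryo 9 it was 1.12 (edgeR adjusted p = 0.0114).

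Usp29 and Zim3 overlap on opposite strands over 31.6% of the Usp29 exon bases, so unstranded reads there counted for both. Zim3, a zinc-finger gene, had 25.2 ± 15.5 CPM (SD, n = 9) in Ehmt2Cntr and 52.4 ± 33.0 CPM (SD, n = 10) in Ehmt2Mat (log2 fold change 1.05, edgeR adjusted p = 0.0765). Peg3, a zinc-finger gene whose start faces that of Usp29 in the window printed above, had a fitted value of the opposite sign, with 5.27 ± 4.67 and 2.32 ± 2.51 CPM (log2 fold change -1.18, SE 0.94, edgeR adjusted p = 0.499). Zim1 had no read in any embryo.

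The Kcnq1 domain holds 9 of the genes, of which 5 were tested and none was called. Phlda2, which restrains placental growth, varied widely, from 0.710 to 40.6 CPM in Ehmt2Cntr and from 3.10 to 78.2 CPM in Ehmt2Mat (log2 fold change 0.54, 95% interval -0.88 to 1.96). Tssc4 ranged from 9.26 to 41.8 CPM and from 2.83 to 56.2 CPM (0.34, -0.49 to 1.18). Cdkn1c, a cyclin-dependent kinase inhibitor, had a median of 8.30 CPM in Ehmt2Cntr and 3.61 CPM in Ehmt2Mat (-1.26, -2.69 to 0.17), and 9 of 10 Ehmt2Mat embryos were below the Ehmt2Cntr median. The channel gene Kcnq1 had the widest interval of the 22 genes (0.45, -2.01 to 2.90).

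Kcnq1ot1, the paternally expressed noncoding RNA that silences this domain, had 9.40 ± 9.71 CPM (SD, n = 9) in Ehmt2Cntr and 2.82 ± 3.38 CPM (SD, n = 10) in Ehmt2Mat (log2 fold change -1.74, SE 0.94, edgeR adjusted p = 0.270). Its annotated exon spans 84395 bases opposite part of Kcnq1, and its low level per kilobase (0.070 RPKM) is a division by that length. Where its reads lie was not examined. The other 4 genes of the domain, Ascl2, Cd81, Slc22a18 and Tspan32, were not tested.

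Mest, which encodes a hydrolase-fold protein, and Copg2, which encodes a coatomer subunit, had a like pattern over embryos. Mest had a median of 10.4 CPM in Ehmt2Cntr and 3.52 CPM in Ehmt2Mat, and Copg2 11.1 and 3.29 CPM, and for both genes all 10 Ehmt2Mat embryos were below the Ehmt2Cntr median. The log2 fold changes of -1.25 (SE 0.79, edgeR adjusted p = 0.367) and -1.49 (SE 0.77, edgeR adjusted p = 0.246) did not pass the threshold. Ehmt2Cntr embryo 3 had 1 count on each gene, Ehmt2Mat embryo 3 had 2 and 1, and Ehmt2Mat embryo 5 had 0 on both. The genes run towards each other and overlap at their 3′ ends, over 23.1% of the Mest and 17.8% of the Copg2 exon bases, where unstranded 3′ reads counted for both, so they are not separate measurements.

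**Figure D4:**
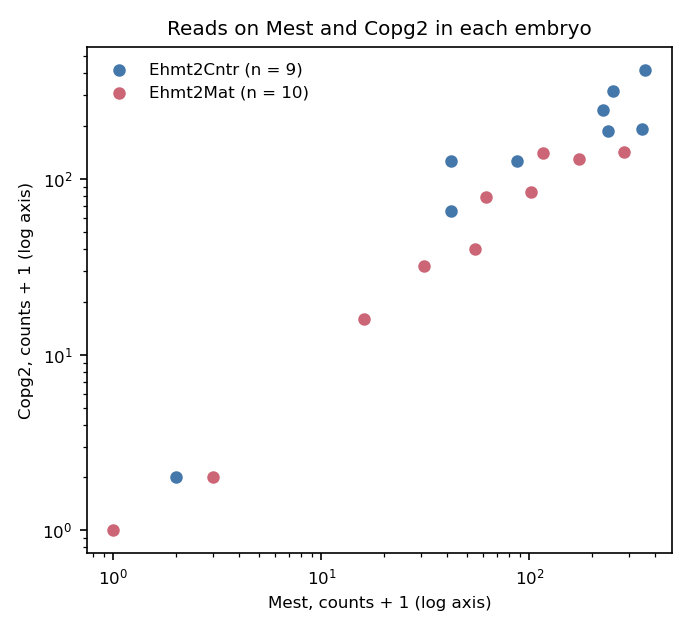
Counts on Copg2 (y, plus 1, log axis) against counts on Mest (x, plus 1, log axis) in each embryo, 9 Ehmt2Cntr and 10 Ehmt2Mat. The embryos lie along a diagonal, with 3 near the origin of both axes. The overlapping 3′ exons and the library depth are shared by both axes.

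Igf2r, which encodes the receptor that clears IGF2, was well measured, at 46.6, 144 and 262 CPM (lowest, median and highest) in Ehmt2Cntr and 80.9, 212 and 419 CPM in Ehmt2Mat. In 8 of 10 Ehmt2Mat embryos it was above the Ehmt2Cntr median (log2 fold change 0.56, SE 0.29, 95% interval -0.04 to 1.16, edgeR adjusted p = 0.248). Airn, the paternal antisense RNA of its domain, reached 3 counts in 1 embryo of each group, and the transporter genes Slc22a3 and Slc22a2 in 2 and 0 Ehmt2Mat embryos and in no Ehmt2Cntr embryo.

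Among the paternally expressed genes at domains of their own, Impact, which encodes an inhibitor of the kinase GCN2, had 5.15, 49.3 and 142 CPM in Ehmt2Cntr and 51.2, 89.3 and 231 CPM in Ehmt2Mat. Mcts2, a retrogene for a translation factor whose counts can include reads from similar sequences, had 10.2, 15.9 and 34.0 CPM and 17.8, 24.0 and 38.0 CPM. For both, all 10 Ehmt2Mat embryos were above the Ehmt2Cntr median, yet the groups overlapped and neither was called (log2 fold changes 0.73 and 0.47, edgeR adjusted p = 0.260 and 0.346). Inpp5f (-0.74), Zrsr1 (0.64) and Sgce (0.10), and the maternally expressed Trappc9 (-0.25), had intervals that included 0. Grb10, which encodes an adaptor that dampens insulin signalling, had means of 14.0 ± 10.8 in Ehmt2Cntr and 10.1 ± 8.45 CPM in Ehmt2Mat (SD, n = 9 and 10), for a log2 fold change of -0.47 (95% interval -1.57 to 0.63).

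The 9 genes of domains with an imprint methylated in sperm (Igf2-H19, Dlk1-Dio3 and Rasgrf1) had no or few reads in most embryos and more in single embryos, and none was tested. H19 had 9 counts in Ehmt2Mat embryo 6 and 0 in the other 18 embryos. Igf2, a fetal growth factor, reached 3 counts in 3 of 9 Ehmt2Cntr and 5 of 10 Ehmt2Mat embryos, at up to 1.39 and 3.94 CPM. The noncoding Meg3 reached 3 counts in 4 embryos of each group, at up to 9.35 and 3.58 CPM, while Dlk1 and Rtl1 had 0 counts throughout, which allows up to 3 counts in an embryo. Reads on these genes varied from embryo to embryo within both groups, and the filter left no test between them.

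Of the 27 genes that failed the filter, 6 (Dlk1, Magel2, Nap1l5, Rtl1, Slc22a2 and Zim1) had no read, and for the other 21 the highest count in an embryo ranged from 6 (Slc22a3) to 560 (Sfmbt2), with a median of 62. Besides the genes named above these were Dio3, Mirg, Nnat, Peg10, Plagl1, Rasgrf1, Rian and Zdbf2. A gene could have no counts in one embryo and many in another: 14 of the 49 genes had 0 counts in at least 1 embryo and 10 CPM or more in another. The same was not counted over all genes, so whether this is particular to imprinted genes was not tested. Ascl2, a trophoblast transcription factor, had 16.9 CPM in Ehmt2Cntr embryo 2, 15.2 CPM in Ehmt2Mat embryo 10 and at most 2.23 CPM elsewhere. Rasgrf1 had 11.6 CPM in Ehmt2Cntr embryo 9 and under 1 CPM in all others.

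Ndn, which encodes necdin, and Cd81, which encodes a tetraspanin, were low in Ehmt2Cntr and present in part of Ehmt2Mat. In Ehmt2Cntr, Ndn had 101 counts in embryo 10 and 0 in the other 8 embryos, and Cd81 had 192 counts in embryo 10 and at most 1 in the others. In Ehmt2Mat, Ndn reached 3 counts in 6 of 10 embryos (highest 134) and Cd81 in 8 of 10 (highest 368), both highest in embryo 3. Both failed the filter. Without it, edgeR gave adjusted p = 0.348 for Ndn and 0.130 for Cd81, whereas DESeq2, which called 12.9% of the 15762 genes for which it gave an adjusted p (6.15% lower, 6.78% higher), gave 0.0145 and 0.00189. The single Ehmt2Cntr embryo with more than 1 count on either gene is the one that lay nearest the Ehmt2Mat embryos on the first principal component.

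The calls changed with single embryos, in fits chosen after seeing the data. Without Ehmt2Cntr embryo 10, Ndn and Cd81 were called by DESeq2 (adjusted p = 0.000766 and 1.54e-08) and by unfiltered edgeR (adjusted p = 0.0166 and 0.000696). Without Ehmt2Mat embryo 3, neither was called by DESeq2 (adjusted p = 0.841 and 0.431) or by unfiltered edgeR (adjusted p = 0.737 and 0.338). Without both embryos, both were called by DESeq2 (adjusted p = 0.0308 and 1.50e-06) and by unfiltered edgeR (adjusted p = 0.0362 and 0.00287).

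Some genes known from somatic cells were high in some of the embryos in which Ndn and Cd81 were high. Dcn, a matrix proteoglycan gene of stromal cells, comes from the further list of imprinted genes given below, not from the cumulus markers. It had 51.5 CPM in Ehmt2Cntr embryo 10 and at most 0.178 CPM in the other Ehmt2Cntr embryos. In Ehmt2Mat embryos 1 to 6, those in which Ndn reached 3 counts, Dcn had 8.71, 32.2, 138, 10.5, 1.86 and 6.62 CPM, and in embryos 7 to 10 at most 2.31 CPM. Cd81 did not follow Dcn in every embryo. It had 0 counts in Ehmt2Mat embryo 5, and 14, 11 and 15 counts in embryos 8, 9 and 10, where Dcn had 0, 2.31 and 0 CPM. Cyp11a1, Star and Inhba were highest in Ehmt2Mat embryo 3 too, with 30.7 CPM for Cyp11a1 and 1.94 CPM for Inhba, while in Ehmt2Cntr embryo 10 Cyp11a1 and Inhba were at 0 and Star at 1.97 CPM. Among Ehmt2Cntr embryos, Star was highest in embryo 2, at 2.35 CPM. The other cumulus markers were not highest in Ehmt2Mat embryo 3. Amhr2 and Tnfaip6 were highest in Ehmt2Mat embryo 9 (164 and 1.52 CPM), and Amhr2 had 55.6 CPM in Ehmt2Mat embryo 3. Vcan had reads in Ehmt2Mat embryo 2 alone (1.06 CPM), and Has2, Ptx3, Fshr and Foxl2 had none. The part of somatic cell RNA in the reads on Ndn and Cd81 was not tested.

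**Figure D5:**
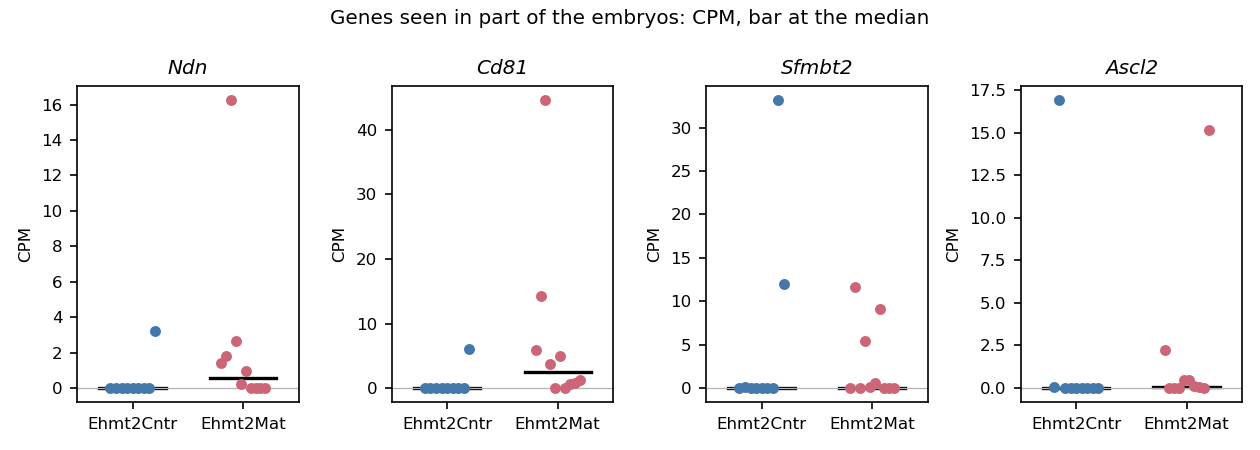
CPM of Ndn, Cd81, Sfmbt2 and Ascl2 in each embryo (points, 9 Ehmt2Cntr and 10 Ehmt2Mat), with a bar at the group median, each panel on its own linear axis. Most embryos lie at or near 0, and single embryos reach 16.2, 44.6, 33.1 and 16.9 CPM.

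The zygotic copy of Ehmt2 was compared within the embryos from mutant oocytes. Between 5 Ehmt2M/Z and 5 Ehmt2M/+ embryos, no imprinted gene was called, beside 0 of 12195 genes tested in edgeR, while DESeq2 called no imprinted gene either. At an unadjusted p under 0.05 there was 1 imprinted gene in edgeR, Grb10, with 5.75 ± 3.84 CPM in Ehmt2M/Z and 14.5 ± 9.90 CPM in Ehmt2M/+ (SD, n = 5 each, log2 fold change -1.33, 95% interval -2.66 to -0.01, edgeR adjusted p = 1.00). Gnas had 28.9 ± 13.1 and 44.8 ± 16.9 CPM in these groups, with a log2 fold change of -0.63 (95% interval -1.48 to 0.22), and Gab1 34.5 ± 18.9 and 28.8 ± 13.3 CPM (0.26, -0.78 to 1.30). Both means of Gnas were below the 112 CPM of all Ehmt2Cntr embryos. Of these, +/- embryos had 80.3 ± 42.6 CPM (SD, n = 3) and +/+ embryos 128 ± 31.7 CPM (SD, n = 6).

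Of 17 factors that protect imprints after fertilisation, 16 were tested, 1 was higher and 1 lower, beside 4.37% and 4.98% of all genes. Zfp57, the zinc-finger gene whose product binds methylated imprints, had 5.44, 13.4 and 28.9 CPM (lowest, median and highest) in Ehmt2Cntr and 13.8, 33.1 and 61.6 CPM in Ehmt2Mat, where all 10 embryos were above the Ehmt2Cntr median. Its log2 fold change of 1.07 (SE 0.34, edgeR adjusted p = 0.0497) was at the threshold and was called in 6 of 19 fits without an embryo, those without Ehmt2Cntr embryo 1 or 9 or Ehmt2Mat embryo 1, 6, 7 or 8, and not without Ehmt2Cntr embryo 10 (edgeR adjusted p = 0.0695). Mbd3, of the NuRD complex, was lower, at 213 ± 56.6 CPM (SD, n = 9) in Ehmt2Cntr and 116 ± 25.3 CPM (SD, n = 10) in Ehmt2Mat (-0.88, SE 0.18, edgeR adjusted p = 0.00294). Trim28 (0.04, 95% interval -0.28 to 0.36), Dppa3 (0.32, -0.01 to 0.66) and Dnmt1 (-0.36, -0.94 to 0.23) were not called.

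Of 8 genes listed around the setting of imprints in the germ line, 7 were tested and 1, the de novo methyltransferase gene Dnmt3b, was lower, with 66.3 ± 49.2 CPM (SD, n = 9) in Ehmt2Cntr and 30.4 ± 9.79 CPM (SD, n = 10) in Ehmt2Mat (log2 fold change -1.12, SE 0.32, edgeR adjusted p = 0.0287). This call was lost without Ehmt2Cntr embryo 3, 6 or 7. The list is background knowledge, and a part of Dnmt3b in setting imprints was not tested. Of 11 genes for PRC2, the writer of H3K27me3, 10 were tested, 3 were lower and none was higher. These were the catalytic subunit gene Ezh2 (-0.69, edgeR adjusted p = 0.0117), Jarid2 (-1.51, edgeR adjusted p = 0.00517), which helps to recruit the complex, and the histone-binding Rbbp4 (-1.12, edgeR adjusted p = 0.0455). The Rbbp4 call was kept in 4 of 19 fits without an embryo, those without Ehmt2Cntr embryo 1, 2 or 10 or Ehmt2Mat embryo 1, and Eed (-0.18) and Suz12 (-0.74) were not called. The lower calls over all genes were 4.98%, as given above. In zygotic +/- embryos alone, none of Ezh2, Jarid2 and Rbbp4 was called. Ezh2 had 266 ± 65.4 CPM in Ehmt2Cntr +/- (SD, n = 3), 404 ± 107 CPM in Ehmt2Cntr +/+ (SD, n = 6) and 223 ± 32.6 CPM in Ehmt2M/+ (SD, n = 5). Jarid2 had 279 ± 59.5, 510 ± 423 and 158.5 ± 42.5 CPM in these groups, and Rbbp4 42.7 ± 9.71, 61.6 ± 34.0 and 22.9 ± 10.1 CPM.

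A further 32 genes that neighbour these domains or are imprinted mainly in placenta or brain were counted for comparison. Of these 15 were tested, 1 was higher and 2 were lower, beside 9.35% of all genes called either way. Nap1l4, a histone chaperone gene beside the Kcnq1 domain, was higher, at 70.0 ± 24.0 CPM (SD, n = 9) in Ehmt2Cntr and 150 ± 33.4 CPM (SD, n = 10) in Ehmt2Mat (log2 fold change 1.10, SE 0.20, edgeR adjusted p = 0.00161), and all 10 Ehmt2Mat embryos were above the Ehmt2Cntr median. Over the alternatives other than leaving out an embryo its log2 fold change ranged from 0.54 to 1.13, and it was not called in zygotic +/- embryos alone. Dhcr7, of cholesterol synthesis, was lower (-1.40, SE 0.35, edgeR adjusted p = 0.0135), as was Ago2, of the small RNA pathway, which neighbours Trappc9 (-0.69, SE 0.18, edgeR adjusted p = 0.0194). Nap1l4 thus differed while none of the 5 tested genes inside the Kcnq1 domain was called, a contrast between genes that was not itself tested.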

How the data were processed

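RNA of single 8C embryos was amplified with a 3′-biased protocol and sequenced as single-end reads of 50 bases. The authors deposited raw counts per gene and embryo. The file headers record featureCounts 1.5.0 on exons of Ensembl release 82 (GRCm38), with a minimum overlap of 10 bases, multi-mapping and multi-overlapping reads kept and no strand setting, so reads on overlapping genes count for each. The submitters' processing notes name TopHat2, featureCounts and DESeq2. The aligner behind these counts is not given in the file headers. One Ehmt2Cntr embryo, number 4, was not analysed here.

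The members and gene lists were chosen with earlier results of these data known. Counts were fitted with edgeR 4.0.16 (R 4.3.3) after its filter on low counts, with TMM scaling and the quasi-likelihood test without covariates, over all genes, p-values adjusted after Benjamini and Hochberg, and genes called under 0.05. CPM used TMM-scaled totals, and RPKM the exon length in the files. The method was tested on simulated data. Full values were given by rule for members past adjusted p 0.05 or unadjusted p 0.05 and the 8 highest by RPKM, and for listed genes past adjusted p 0.05 and Ehmt2, Zfp57, Trim28, Dppa3 and Dnmt1; other values were chosen after they were seen. Samples are separate embryos, but nothing ties them to separate mothers, so p-values measure the spread between these embryos. No embryo pair had identical values (highest Pearson correlation 0.970). The embryo numbers carry no stated meaning and did not pair the embryos (mean correlation of deviations 0.026 for the same number and -0.003 for different numbers). Alternatives were RLE and upper-quartile scaling, DESeq2 1.42.0, no filter or at least 10 counts in all embryos, a block for the embryo number, zygotic +/- embryos alone and leaving out each embryo. Promoter windows are from RefSeq (GRCm38.p6), matched by symbol. For members, windows on chromosome 18, where Impact lies, were left out, while the windows of all genes kept that chromosome. This left 40 of 49 members with a window. Floors cover counting error only, and amplified reads are not independent molecules.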

Additional observations from a re-analysis of the deposited data

Results flagged for a closer look

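Single embryos far from the rest of their group were looked for on log2(CPM + 1) in 46 groups, 23 named genes in Ehmt2Cntr and in Ehmt2Mat, and 5 groups had such an embryo by Dixon's criterion, which chance exceeds in about 1 in 20 groups. Gnas was lowest in Ehmt2Cntr embryo 1, at 32.3 CPM with the next at 87.5 CPM. Usp29 was highest in Ehmt2Cntr embryo 9, at 206 CPM with the next at 77.9 CPM. Impact was lowest in Ehmt2Cntr embryo 7, at 5.15 CPM with the next at 35.0 CPM. Among the listed genes, Dnmt3b was highest in Ehmt2Mat embryo 10, at 56.1 CPM with the next at 34.3 CPM, and Rbbp4 was lowest in Ehmt2Cntr embryo 2, at 11.7 CPM with the next at 36.3 CPM. Without the embryo concerned, the log2 fold changes were -1.73 for Gnas, 1.12 for Usp29, 0.57 for Impact (0.73 with it), -1.26 for Dnmt3b and -1.26 for Rbbp4.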

How the results depend on the processing

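Of the imprinted genes, 2 were called in the main comparison and with RLE or upper-quartile scaling. DESeq2 called 5 (Gnas, Gab1, Ube3a, Ndn and Cd81), the fit without a filter called 1, and zygotic +/- embryos alone gave 0, with 1 gene called over all genes in a comparison of fewer embryos. With 10 counts required in every embryo there were 3, and leaving out single embryos gave 1 to 3. The Gab1 call was also lost without a filter (adjusted p = 0.0545). Embryo numbers do not pair the samples. With the number as a replicate block, 2 imprinted genes were called, Gnas (-1.51) and Usp29 (0.91, adjusted p = 0.0274), while Gab1 was not (adjusted p = 0.0703), and 699 genes were called over all genes beside 1099. Of the 4 gene lists, 9 genes were called, against 4 with the replicate block and 0 in zygotic +/- embryos alone. The cause of these changes was not tested. DESeq2 and the fit without a filter moved the median log2 fold change of all genes from -0.04 to 0.14 and 0.13, and DESeq2 called 2038 genes. The median over imprinted genes ranged from -0.30 to -0.02 without single embryos and reached 0.10 with DESeq2. The median over the maternally expressed genes (0.05) was 0.55 with DESeq2, 0.44 without a filter and -0.63 in zygotic +/- embryos alone. All these medians are over the genes that each fit held, so they also move with the set of genes. The main fit held 22 imprinted genes, DESeq2 and the fit without a filter 43 each, and zygotic +/- embryos alone 28. Chosen after seeing the data, fits of Ndn and Cd81 without Ehmt2Cntr embryo 10, or without it and Ehmt2Mat embryo 3, passed the threshold in DESeq2 and unfiltered edgeR, and those without Ehmt2Mat embryo 3 alone in neither.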

Other observations

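The hexamer TGCCGC, the core of the sequence bound by ZFP57, was searched on both strands of the promoter windows. It was found in at least 1 window of 13 of the 40 imprinted genes with a window used here (32.5%), beside 13.1% of all 27025 genes with a window. Among the 13 were Snrpn, Mest, Copg2, Mcts2, Grb10 and Zdbf2. Windows on chromosome 18, where Impact lies, were left out for imprinted genes and kept for all genes. It was in none of the windows of Gnas, Gab1, Peg3 and Usp29. The hexamer holds a CG dinucleotide, and imprinted windows have more of these than others (median 15 against 7). The part of base composition in this difference was not tested, and imprinted domains can hold the hexamer outside these windows.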
